A study of Mus musculus with 6 samples.

Results

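The genes described here encode the proteins that hold the replicative polymerases on DNA and finish the new strands. They are the sliding clamp gene Pcna, the clamp loader genes Rfc1, Rfc2, Rfc3, Rfc4 and Rfc5, the single-strand binding protein genes Rpa1 and Rpa2, the flap endonuclease gene Fen1 and the DNA ligase gene Lig1. They were taken by gene symbol from the annotation of the array, which gave 11 probe sets for these 10 genes (2 for Pcna) out of 21789 probe sets with a single symbol. RNA came from N2A cells, a mouse neuroblastoma line, transfected transiently with 1.5 ug of a plasmid and harvested 2.5 days later according to the labels. The general methods of the study give a range of times, and its figure legend for this knockdown gives a longer time than the labels. The control group (3 arrays) received a non-targeting vector, and the knockdown group (3 arrays) received a construct in which the U6 promoter drives a short hairpin RNA (shRNA) against the long non-coding RNA Dali. Every sample carried a plasmid of this kind, the groups differ by a single pair of constructs, and uptake by each cell was not measured here. Depletion of Dali itself was not analysed here, because no probe set used was annotated to Dali alone.

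In the cell, replication factor C (RFC) recognises the end of a primer, opens the ring formed by PCNA and closes it around DNA, and PCNA then tethers the polymerase. Replication protein A (RPA) coats unwound template. On the lagging strand FEN1 trims the flap at the front of each Okazaki fragment and LIG1 seals the remaining nick, and both enzymes bind PCNA. Transcripts of these genes are typical of proliferating cells and accumulate around the start of S phase, when E2F transcription factors are active. In bulk RNA, a larger share of cells that express a gene and more of its RNA per cell cannot be told apart.

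All 10 genes had a higher mean in Dali knockdown cells, as did 53.5% of all probe sets tested. The differences of log2 values, knockdown minus control, ran from 0.24 for Rfc5 to 0.56 for Fen1 with a median of 0.33 (1.26-fold), against a median of 0.02 over the 11705 probe sets tested. None was called by limma in the unpaired comparison (0 of 11 probe sets, against 1.14% of all probe sets tested called in either direction and 0.367% called higher), where a call needs a Benjamini-Hochberg adjusted p under 0.1 and a fold of at least 1.3. At an unadjusted p under 0.05 there were 6 of 11 probe sets, for 5 genes, and all of these were higher, against 5.4% of all tested. The arrays can also be compared by replicate number, although the labels do not say that they were paired. Deviations from the group means correlated at 0.65 for numbers 2 and 3, but at 0.14 for number 1. Control array 1 correlated more with knockdown array 2 (0.20). The pairing was thus chosen from the same values that the paired fit uses. When replicate number entered limma as a block, the fit called Rfc4, Rpa2, Fen1 and Lig1 as higher (4 of 11 probe sets, against 2.77% of all tested), and 10 of 11 probe sets passed the adjusted p of 0.1 as higher without regard to fold, against 9.34%. Rfc2 was the exception (adjusted p = 0.12). The paired count was 6 without number 1 (both Pcna probe sets added), 0 without number 2 and 0 without number 3. Over all probe sets 926, 0 and 1 were called in these fits. Without number 2 or 3 calls were thus lost over the whole array, which says little about these 10 genes in particular. In the unpaired comparison 2 probe sets (Rpa2, Fen1) were called without control replicate 3, and 3 (Rfc4, Rpa2, Fen1) without knockdown replicate 2, where calls over all 11705 probe sets also rose, from 133 to 331 and 508.

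**Figure D1:**
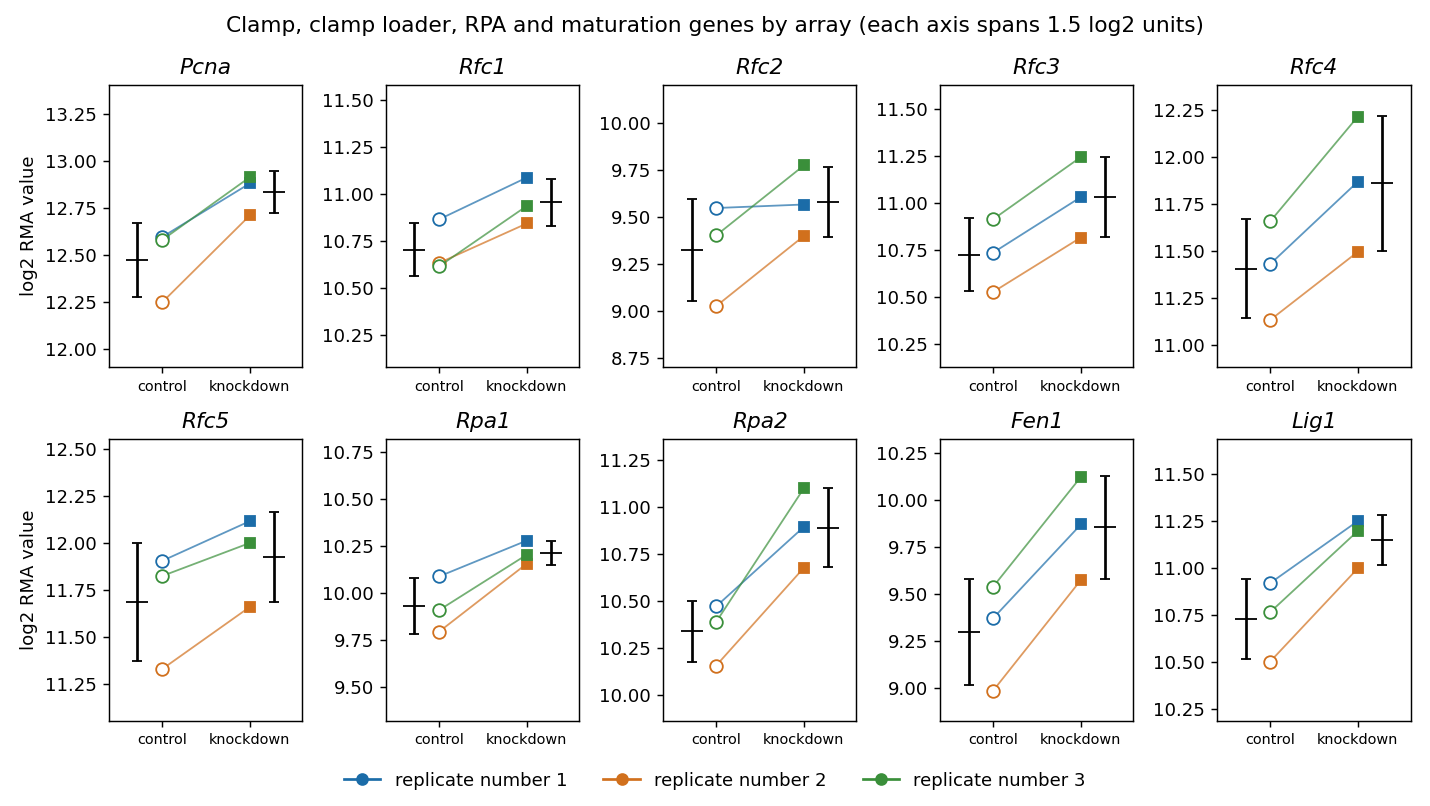
Log2 RMA value (vertical axes, each spanning 1.5 log2 units) of the 10 genes on the control arrays (open circles) and the Dali knockdown arrays (filled squares), with a line between the 2 arrays that share a number, and the group mean and SD (n = 3) as black bars. Every line rises from control to knockdown, and the arrays numbered 2 are mostly the lowest of their group, as for Fen1 (8.99 in control and 9.58 in knockdown cells).

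Pcna encodes the trimeric ring itself. Its first probe set read 12.59, 12.25 and 12.58 on control arrays 1, 2 and 3, and 12.88, 12.71 and 12.91 on knockdown arrays 1, 2 and 3. The knockdown arrays lay above all control arrays. The difference was 0.36 (SE 0.14, 1.28-fold, limma adjusted p = 0.29), and 0.030 with the replicate block, a fold below the one required for a call. With each array centred on its median the difference became 0.39, and both Pcna probe sets were then called with the block (limma adjusted p = 0.012). The second probe set is annotated with the same transcripts and never differed from the first by more than 0.01, so that the 2 are not separate measurements. RefSeq also lists the pseudogenes Pcna-ps1 and Pcna-ps2, and how the probes divide between these sequences was not analysed here. The 250 bases before the annotated start of Pcna (chr2:132253181-132253430, minus strand, GRCm38.p6, RefSeq) are printed 5′ to 3′ as the example of a start without an E2F-type word, with the CCAAT word (ATTGG on this strand) in capitals.

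Pcna: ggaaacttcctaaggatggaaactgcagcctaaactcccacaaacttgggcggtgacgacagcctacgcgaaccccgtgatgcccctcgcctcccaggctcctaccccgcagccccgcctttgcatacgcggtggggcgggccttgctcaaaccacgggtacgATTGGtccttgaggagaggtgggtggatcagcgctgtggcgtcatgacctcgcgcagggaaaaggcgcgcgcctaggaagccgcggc

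The clamp loader is a ring of 5 subunits, RFC1 being the large one and RFC2 to RFC5 the small ones. Rfc4 had the largest difference of the loader genes. It read 11.43, 11.13 and 11.66 on control arrays 1, 2 and 3, and 11.87, 11.50 and 12.22 on the knockdown arrays. The groups overlapped, because knockdown array 2 lay below control array 3, but each knockdown array was higher than the control array with its number by 0.36 to 0.56. The difference was 0.45 (SE 0.18, 1.37-fold, limma adjusted p = 0.29), and Rfc4 was called with the replicate block (adjusted p = 0.016). Rfc3 read 10.74, 10.53 and 10.91 on control arrays and 11.03, 10.82 and 11.24 on knockdown arrays. Its 3 paired differences were nearly equal, at 0.30, 0.29 and 0.33, while the spread between arrays of one group was larger (SD 0.19 in control and 0.21 in knockdown cells, n = 3). Rfc3 did not pass the unpaired test (difference 0.31, limma adjusted p = 0.42) and passed the adjusted p, but not the fold, with the block (0.041).

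Rfc1, Rfc2 and Rfc5 had the smaller differences of the loader. Rfc1 read 10.86, 10.63 and 10.61 on control arrays and 11.09, 10.84 and 10.93 on knockdown arrays, a difference of 0.25 (limma adjusted p = 0.48, or 0.075 with the replicate block). Rfc5 read 11.90, 11.33 and 11.82 on control arrays and 12.11, 11.66 and 11.999 on knockdown arrays. Its difference of 0.24 was exceeded by the range within either group, and the limma adjusted p was 0.59, or 0.089 with the block. Rfc2 read 9.55, 9.03 and 9.40 on control arrays and 9.57, 9.40 and 9.77 on knockdown arrays. For replicate number 1 its difference was 0.02, the smallest of the 30 paired differences, against 0.37 for both other numbers. The 95% interval of Rfc2 ran from -0.08 to 0.59 unpaired and from 0.03 to 0.48 with the block. In the unpaired comparison the loader differences shifted when 1 array was left out. Leaving out 1 array also leaves the other array of its number unmatched, and the cause of these shifts was not tested. The paired differences of Rfc5 were 0.21, 0.33 and 0.18 for numbers 1, 2 and 3. Without control replicate 2 the unpaired difference of Rfc5 was 0.06 and that of Rfc2 0.11. Without knockdown replicate 3 they were 0.16 for Rfc2, 0.20 for Rfc3 and 0.28 for Rfc4, and for Rfc5 the value was 0.14 without knockdown replicate 1 and 0.37 without knockdown replicate 2. Groups overlapped for each of the 5 loader genes, and of these genes Rfc4 alone was called with the block.

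The starts of 3 loader genes held an E2F-type word. For Rfc3 the 250 bases before the start (chr5:151651209-151651458, minus strand, GRCm38.p6, RefSeq) are shown because the word, in capitals, lies 9 bases before it. A reverse-strand match follows directly after the start. For Rfc4 the match lies after the annotated start, so that only the match and 10 bases on each side are shown (chr16:23127703-23127729, minus strand). No promoter sequence of Rfc2 was used here.

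Rfc3: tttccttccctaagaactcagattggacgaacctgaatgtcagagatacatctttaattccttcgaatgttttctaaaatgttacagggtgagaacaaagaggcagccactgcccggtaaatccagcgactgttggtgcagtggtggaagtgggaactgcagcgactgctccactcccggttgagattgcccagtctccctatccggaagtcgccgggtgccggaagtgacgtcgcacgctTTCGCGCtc

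Rfc4: ccgttctgtgGCGGGAAccgcggtgcc

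RPA is a trimer whose large subunit RPA1 makes most contacts with DNA and whose middle subunit RPA2 is phosphorylated in S phase and after damage. Rpa2 read 10.47, 10.16 and 10.39 on control arrays 1, 2 and 3, and 10.90, 10.68 and 11.10 on knockdown arrays. All knockdown arrays lay above all control arrays. The difference of 0.55 (SE 0.15, 1.47-fold, 95% interval 0.24 to 0.87) had a limma adjusted p of 0.11 unpaired and 0.012 with the replicate block, which called it. Rpa1 read 10.09, 9.79 and 9.91 on control arrays and 10.28, 10.16 and 10.20 on knockdown arrays, also without overlap. Its difference was 0.28 (SE 0.14, limma adjusted p = 0.40, or 0.059 with the block), and in every pair it was smaller than that of Rpa2, by 0.16 to 0.42. This difference between subunits was noticed in the values and was not tested. Rpa3, the small subunit, was removed by the variance filter and had differences of 0.14 and 0.23 at its 2 probe sets (limma adjusted p = 0.71 and 0.44 without the filter). The bases before the start of Rpa2 (chr4:132768110-132768359, plus strand, GRCm38.p6, RefSeq) are shown because an E2F-type word, in capitals, begins 37 bases before the start.

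Rpa2: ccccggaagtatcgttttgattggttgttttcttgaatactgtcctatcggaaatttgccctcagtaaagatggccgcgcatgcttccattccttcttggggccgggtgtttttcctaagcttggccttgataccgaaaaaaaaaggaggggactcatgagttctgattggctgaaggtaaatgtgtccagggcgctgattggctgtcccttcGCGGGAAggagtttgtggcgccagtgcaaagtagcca

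Strand maturation had the largest difference of all, that of Fen1. Fen1 read 9.37, 8.99 and 9.54 on control arrays 1, 2 and 3, and 9.87, 9.58 and 10.12 on knockdown arrays. The groups did not overlap, although knockdown array 2 lay only just above control array 3, and the paired differences were 0.50, 0.59 and 0.58. The mean difference was 0.56 (SE 0.17, 1.47-fold, 95% interval 0.20 to 0.91, limma adjusted p = 0.15), and the block called it (0.0093). Lig1 read 10.92, 10.50 and 10.76 on control arrays and 11.25, 10.996 and 11.20 on knockdown arrays, again without overlap. Its difference was 0.42 (SE 0.15, 1.34-fold, limma adjusted p = 0.22), and it was called with the block (0.019). Both genes have several annotated starts. A match lies before the second start of Fen1 (chr19:10203939-10203965, minus strand) and after 2 starts of Lig1 (chr7:13278842-13278868 and chr7:13279258-13279284, plus strand), and each is shown in capitals with 10 bases on each side.

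Fen1, second start: caggaggctgTTCGCGCctggcagatc

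Lig1, second start: gccaaagtgcGCGCGAAatctgtgtgg

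Lig1, last start: agaattagtgGCGCCAAgagaagaggg

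**Figure D2:**
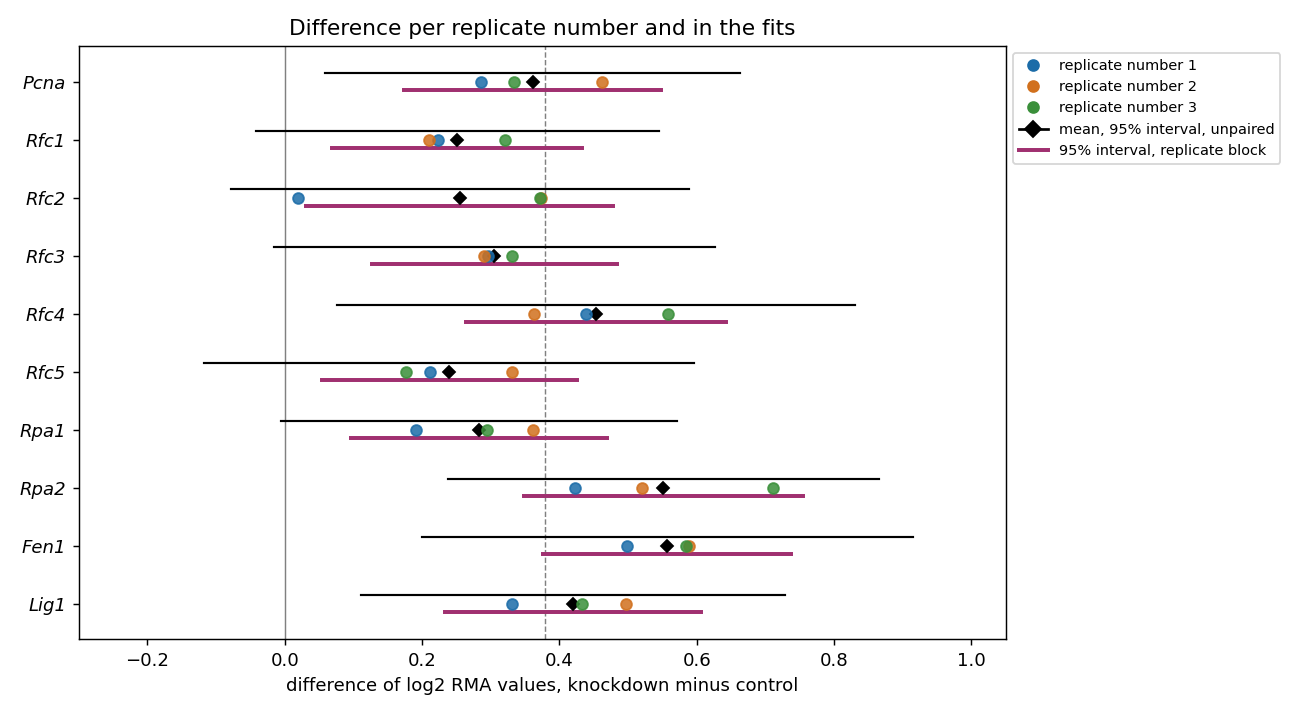
Knockdown minus control on the log2 RMA scale (horizontal axis) for each of the 10 genes. Coloured points stand for the 3 array pairs with a shared number, diamonds the mean, black lines the 95% interval of the unpaired limma fit and purple lines that with the replicate block, and the dashed line marks the fold of 1.3. All 30 points lie above 0, from 0.02 (Rfc2, number 1) to 0.71 (Rpa2, number 3).

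Across the 10 genes and 3 replicate numbers, the knockdown array was higher in 30 of 30 comparisons. A higher value in all 3 pairs was also found for 23.4% of all probe sets tested. The median difference was 0.29, 0.37 and 0.35 for replicate numbers 1, 2 and 3, where the median over all probe sets tested was 0.08, -0.02 and -0.05. In 5 genes (Pcna, Rpa1, Rpa2, Fen1, Lig1) all knockdown arrays lay above all control arrays, against 9.55% of all probe sets tested. For these genes an exact permutation test over the arrays gave p = 0.1, the smallest that 3 against 3 arrays allow, so that this test could not reach 0.05.

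The genes moved together from array to array, also within a group. Control array 2 was the lowest control array for 9 of the 10 genes (Rfc1 was lowest on array 3), and knockdown array 2 was the lowest knockdown array for all 10. The mean of the 10 genes, each centred on its own mean over the 6 arrays, was -0.05, -0.41 and -0.09 on control arrays 1, 2 and 3, and 0.24, -0.01 and 0.32 on knockdown arrays. Knockdown array 2 therefore lay close to control arrays 1 and 3, while each knockdown array was above the control array of its number. The spread from the highest to the lowest array within a group, had a median over genes of 0.40 in both groups, against the median difference of 0.33 between the groups. Deviations from the group means had a Pearson correlation between genes of 0.18 (Rfc1 and Rfc3) to 0.99 with a median of 0.83 over the 45 pairs of genes and 6 arrays. These points share the arrays and their normalisation. Whatever separates the arrays numbered 2 moved with these results, and its part in them was not tested.

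The genes whose pattern over the 6 arrays was most like the mean of the 10 were Olfr1208, an olfactory receptor gene with low values (5.20 to 5.71), Fancm, a translocase of the Fanconi anaemia pathway, Mcm10, which acts in origin firing, Ezh2, the histone methyltransferase of Polycomb complex PRC2, and Rtel1, a helicase of telomeres and recombination. Pearson correlations were 0.996 to 0.998 (Spearman 0.94 to 1) among 11026 probe sets compared, of which 460 (4.17%) were above 0.9. Their differences, knockdown minus control, were 0.26, 0.48, 0.63, 0.40 and 0.39 in this order. Because the genes were chosen for following a mean that differs between the groups, these differences are a description and carry no test.

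Related genes were taken from 7 lists of partners and alternatives, with 51 of 52 genes measured by 56 probe sets, of which 34 passed the variance filter. None was called in the unpaired limma comparison. At an unadjusted p under 0.05, 17 were higher and 2 lower, where 5.4% of all probe sets tested were higher. Without control replicate 3 there were 8 calls and without knockdown replicate 2 there were 13, against 331 and 508 of all 11705 probe sets. With the replicate block 13 were called higher and 2 lower, against 2.77% and 4.89% of all probe sets tested. This count was 16 without number 1 and 0 without number 2 or without number 3. The median difference over the 56 probe sets was 0.10.

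Alternative clamp loaders share RFC2 to RFC5 and replace RFC1. Of their 5 genes, Atad5, whose product unloads PCNA, had a difference of 0.59 (limma adjusted p = 0.14, or 0.012 with the block). Dscc1 (0.58) and Chtf18 (0.38), subunits of the loader that acts in sister chromatid cohesion, were also called with the block (0.014 and 0.028). Over all probe sets tested, the block called 2.77% as higher. Chtf8 had a difference of 0.26 and Rad17, the loader of the checkpoint clamp, one of -0.07. The checkpoint clamp itself, measured by 6 genes, had a median difference of 0.04 and 0 calls with the block among 2 tested, and Rhno1, its partner with the smallest p, had a difference of 0.09. The median for the alternative loaders was 0.38.

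Among 11 measured genes for proteins that bind PCNA (Cdkn1a, also listed, was not analysed here), all 12 probe sets had a higher mean, with a median difference of 0.43. A higher mean was found for 53.5% of all probe sets tested. The block called 7 of the 10 tested as higher, against 2.77% of all probe sets tested. Pclaf, the PCNA clamp-associated factor, was represented by 2 probe sets, with differences of 0.64 and 0.68 (limma adjusted p = 0.0082 and 0.010 with the block, 0.11 for both without). The others were the chromatin assembly factor genes Chaf1a (0.52) and Chaf1b (0.43), the histone H4 methyltransferase gene Kmt5a (0.43), the licensing factor gene Cdt1 (0.47) and Zranb3 (0.42), an annealing helicase. In the list of PCNA ubiquitination genes only Usp1, the protease that removes ubiquitin from PCNA, was called with the block, as higher (0.55, limma adjusted p = 0.011, or 0.11 unpaired), among 5 tested. Rad18, the ligase that attaches ubiquitin, had a difference of -0.07. The RPA partners had 0 of 3 called, with Xpa, of nucleotide excision repair, at -0.28 (adjusted p = 0.070 with the block).

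The 2 genes called lower with the block were a ligase and a polymerase subunit, where the block called 4.89% of all probe sets tested as lower. Lig3, the ligase of mitochondria and of excision repair, read 10.27, 10.22 and 10.08 on control arrays and 9.54, 9.76 and 9.75 on knockdown arrays. It differed by -0.50 (limma adjusted p = 0.11, or 0.019 with the block), and its arrays did not overlap. Lig1 and Lig3 thus had differences of opposite sign in each of the 3 pairs, the gap between them being 0.76 to 1.06, noticed in the values and not tested. Lig4, of end joining, had a difference of 0.02. Pold4, the smallest subunit of DNA polymerase delta, which PCNA tethers, read 9.54, 9.83 and 9.48 on control arrays and 8.82, 9.37 and 8.82 on knockdown arrays. It differed by -0.61 (limma adjusted p = 0.11, or 0.0092 with the block). The catalytic subunit gene Pold1 had a difference of 0.35, Pold2 of 0.19 and Pold3 of 0.33, none of them called. Of the nucleases that act on primers or flaps beside FEN1, Exo1 (0.74, adjusted p = 0.0075 with the block, 0.13 without) and Dna2 (0.48, 0.014 and 0.22) were called higher with the block.

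**Figure D3:**
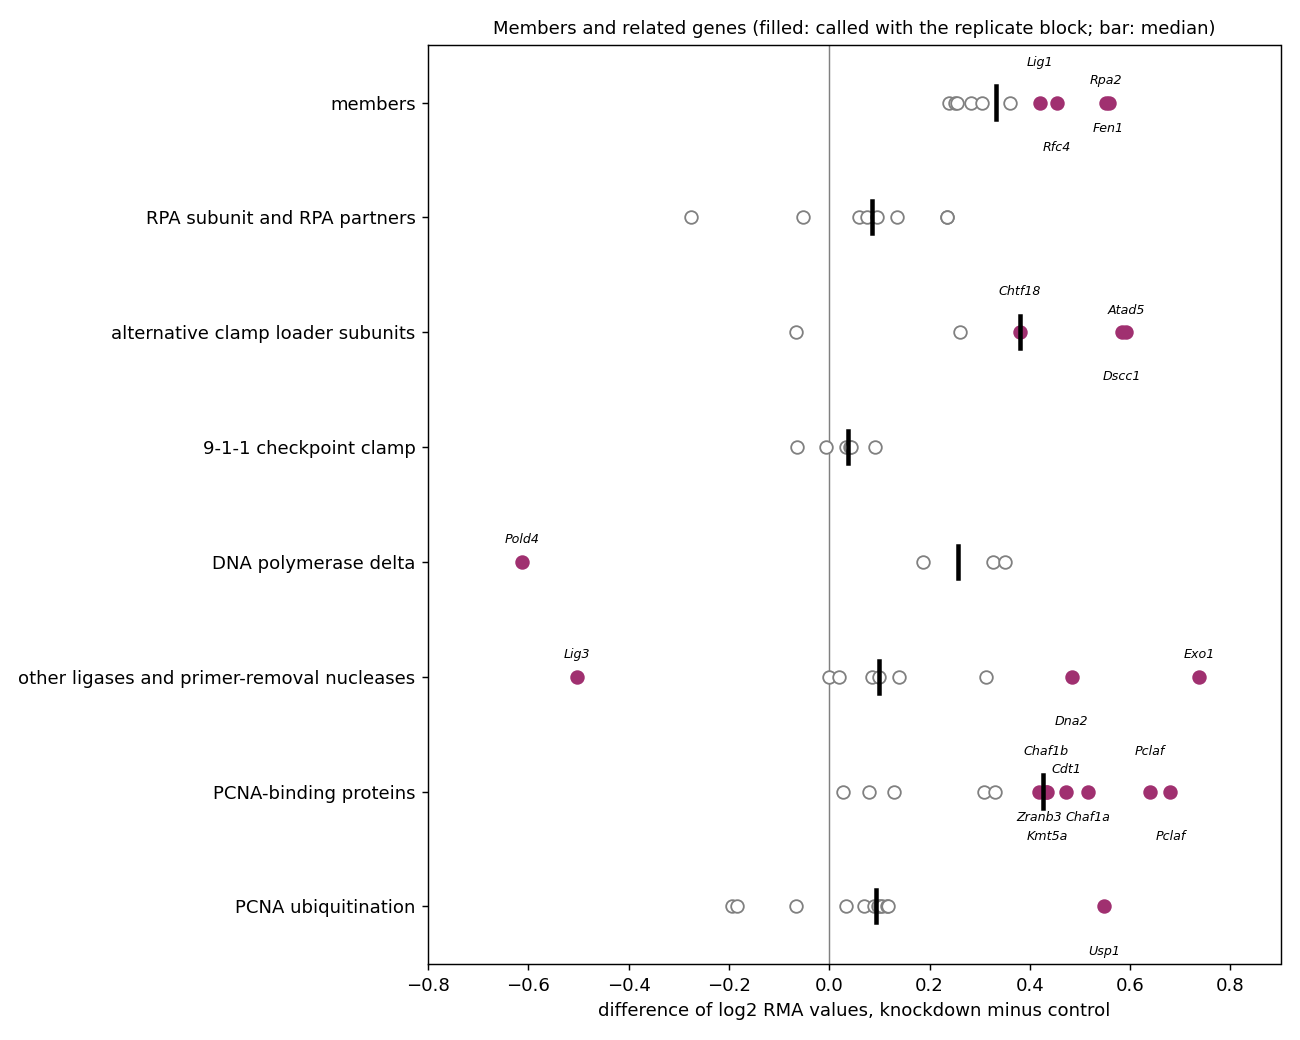
Knockdown minus control on the log2 RMA scale (horizontal axis) for the 10 members (1 point per gene) and for 7 lists of related genes (1 point per probe set), with black bars for the median of each row. Filled points were called by limma with the replicate block and are named. Lig3 (-0.50) and Pold4 (-0.61) are the filled points below 0, and the checkpoint clamp row stays near 0.

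The starts of the 10 genes were searched for 3 kinds of word in windows from 250 bases before to 50 bases after each annotated RefSeq start, on both strands. The E2F-type words were TTCCCGC and its variants TTGGCGC, then TTCGCGC, then TTGCCGC. Windows were at hand for 9 of the 10 genes (12 windows), and 6 genes held such a word (Rfc1, Rfc3, Rfc4, Rpa2, Fen1, Lig1), or 66.7%, against 10.9% of all 27025 genes with a window and 15.6% of the 8095 that were tested. By window the shares were 58.3% of 12, 9.57% of all 32851 and 13.6% of the 10013 windows of genes tested. Each of the 4 genes called with the block held a word, as did Rfc1 and Rfc3, while Pcna, Rfc5 and Rpa1 held none. The share of G and C in the 12 windows ran from 45.3% to 69.3%, the words consist mostly of G and C, and windows were not matched on this share. CCAAT, the binding word of NF-Y, was found in 5 of 9 genes (55.6%, against 41.1% of all genes and 42.9% of those tested), with 3 matches in the Rpa2 window. The octamer ATGCAAAT, a word bound by POU factors, was found in 0 of 9 genes, against 1.97% of all genes. A match describes the sequence and does not show binding.

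**Figure D4:**
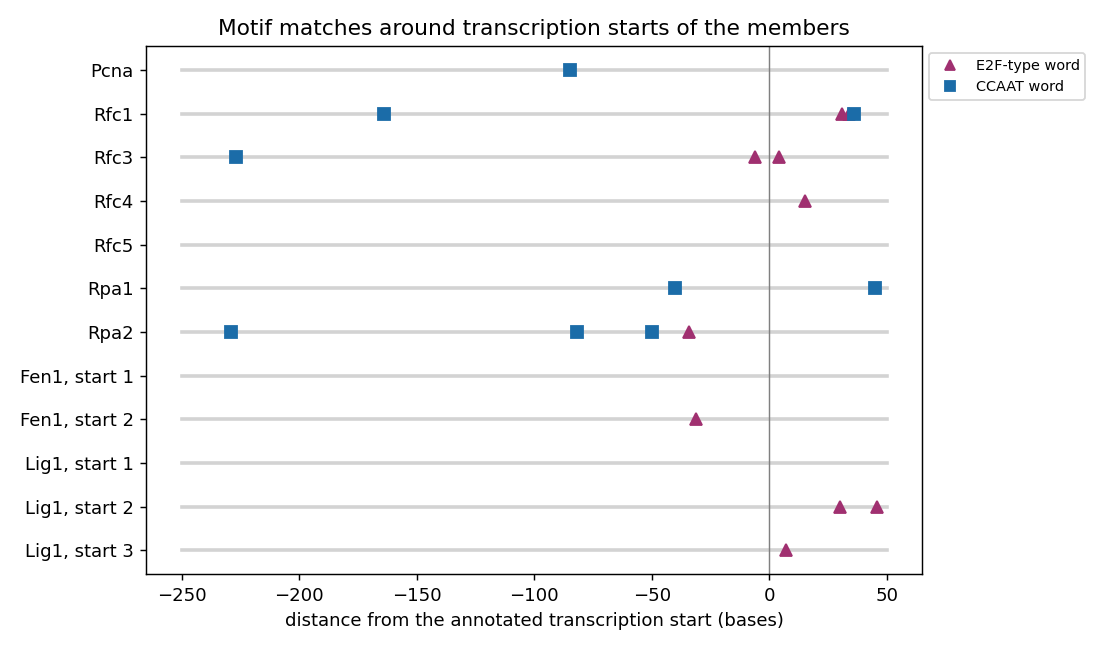
Positions of E2F-type words (triangles) and CCAAT words (squares) relative to the annotated transcription start (horizontal axis, in bases, start at 0) in the 12 windows of 9 genes. Triangles lie between 37 bases before and 49 bases after a start, and windows of Pcna, Rfc5 and Rpa1 hold none.

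Over the whole series, array medians over annotated probe sets lay between 8.34 and 8.40. The 9 measured sympathoadrenal neuroblastoma markers of 11 listed lay at percentiles 70.1 to 98.6 of annotated probe sets. Their median difference was -0.10, with a range from -0.27 to 0.12. None was called with or without the block, where the unpaired fit called 1.14% of all probe sets tested. In 5 lists of markers of epithelial, fibroblast, leukocyte, endothelial and glial cells, 18 of 20 genes were measured, at percentiles 21.5 to 53.4, with list medians of the difference between -0.07 and 0.08 and 0 called with or without the block. Percentiles compare different probes and are only a rough guide to level.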

How the data were processed

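RNA from 6 samples of N2A cells was profiled on Affymetrix Mouse Gene 1.0 ST arrays (200 ng of RNA each). The authors applied RMA background correction and quantile normalisation and summarised probe sets at the gene level, and the deposited values are log2 (2.76 to 14.8). Versions of their tools are not given in the sources used here. Of 35556 rows, the annotation table gave 1 gene symbol to 21789, several to 1621 and none to 12146, which were left out. Symbols were checked by Entrez number against RefSeq (GRCm38.p6), where 21698 matched and 0 changed. Groups and replicate numbers came from the labels. The study describes the samples of a group as biological replicates, and no source used here says whether they came from separate days.

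Following the methods of the study, probe sets with low variance were removed and groups were compared with limma 3.58.1 (lmFit, eBayes, two-sided) in R 4.3.3. The filter, read here as an interquartile range above the median, kept 11705 of 23410 annotated probe sets. It uses the same arrays as the test, so adjusted p-values after it can be too small, and values without it were computed too. Tested on simulated data, the fits without the filter estimated the known differences without large bias. The check did not require that differences as small as those of the members be called. Its noise was independent between genes, unlike the deviations of the members here. False calls were somewhat more frequent than the adjusted p allows, and most so in the unpaired fit after the filter. Calls needed an adjusted p under 0.1 and a fold of 1.3. The unpaired fit called 133 probe sets, fewer than the genes that the study reported as changed in this knockdown. The count of the study was thus not reproduced, and the calls given here are those of the fits made here. Values of genes outside the filter come from the fit without it. Replicate numbers were treated as pairs because deviations from group means correlated at 0.14, 0.65 and 0.65 for numbers 1, 2 and 3, all over the bound of 0.1, although control array 1 correlated more with knockdown array 2 (0.20). The block leaves 2 residual degrees of freedom in place of 4. The number of arrays limits the precision.

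Members and lists were chosen with earlier results of these data known. All members were named, and of each related list the genes called or, where none was, the gene with the smallest unfiltered p (Xpa, Atad5, Rhno1, Pold4, Lig3, Kmt5a, Usp1). Genes called with the block were named too. Rpa3, Chtf8, Rad17, Rad18, Lig4, Pold1, Pold2 and Pold3 were added after their values were seen, for their roles. The 5 most similar genes were ranked by Pearson correlation. Motif searches used Python 3.11.15. Sequences of some matches are not reported here.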

Additional observations from a re-analysis of the deposited data

How the results depend on the processing

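The direction of all 11 member probe sets was the same under 11 alternatives (121 values, of which 0 reversed, 111 kept their side of the threshold and 10 crossed to a call). The block, the filter settings and the trend leave the difference itself unchanged, and centring moves every probe set by the same amount. Only leaving out single arrays could therefore have changed the direction, so the count of 0 reversed says little about the other settings. The number of member probe sets called, 0 in the unpaired comparison, was 4 with the replicate block and 1 (Rpa2) with an intensity trend in limma. It was 0 without the variance filter, with unannotated rows in the filter, with median centring, with an adjusted p under 0.05 and without the fold. Over all probe sets these settings called 41 (of 23410), 0 (of 17778), 128, 32 and 133, and the trend called 191. With unannotated rows in the filter no probe set was called, so the count there says little about these genes. Leaving out single arrays gave 0 to 3 member calls (2 without control replicate 3, 3 without knockdown replicate 2), where 4 to 508 of all probe sets were called. Alternatives added after the data were seen gave, with the block, 10 without the fold, 6 with median centring, 4 without the variance filter, and 6, 0 and 0 without numbers 1, 2 and 3. Over all probe sets the block called 896, and under these settings 2586, 874, 888 (of 23410 in place of 11705), 926, 0 and 1. For related probe sets, also 0 at first, the totals over all probe sets given above apply too. The related counts were 15 with the block, 3 with the trend and 1 (Usp1) with median centring. Without single arrays they were 0 to 13 (8 without control replicate 3, 13 without knockdown replicate 2). With the block they were 22 without the fold, 16 with centring, 15 without the filter and 16, 0 and 0 without numbers 1, 2 and 3. The median difference over the members was 0.23 (without control replicate 2) to 0.42 (without knockdown replicate 2), and single probe sets ranged from 0.06 (Rfc5) to 0.70 (Fen1). Leaving out 1 array leaves the other array of its number unmatched, and the cause of these shifts was not tested. Median centring changed the median difference from 0.33 to 0.36. With 3 arrays a group, the unpaired 95% intervals of 5 genes (Rfc1, Rfc2, Rfc3, Rfc5, Rpa1) include 0.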
